A study of Homo sapiens with 9 samples.

Results

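The S100 genes described here code for small calcium-binding proteins, and 10 of them, picked by symbol with earlier results of these data known, were followed in a table of 60564 human genes. They are S100A2, S100A4, S100A6, S100A8, S100A9, S100A10, S100A11, S100A14, S100A16 and S100P, and each symbol matched 1 row of the table. Transcripts were measured by RNA-seq in BxPC3, an established cell line of human pancreatic ductal adenocarcinoma. One group received WB436B, a small molecule given by code name, at 0.1 µM. A second received siRNA (short duplexes that degrade a matching transcript) directed at STAT3, and the last received vehicle, with 3 libraries in each group. The labels call the libraries biological replicates without saying whether they were separate cultures, so the p-values measure spread among these libraries, which may be technical. No non-targeting siRNA and no time of exposure is named, and the labels do not say whether vehicle cells were transfected, so an effect of transfection cannot be told apart from loss of STAT3. Values are FPKM, fragment counts scaled to transcript length and library depth, as deposited by the authors.

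S100 proteins carry a pair of EF-hand loops that bind calcium, and most work as dimers that then grip a partner protein. Inside the cell the partners include annexins, myosin and ezrin. Several members, among them S100A8, S100A9 and S100P, are also released and act on surface receptors such as AGER (RAGE) and TLR4. S100A2, S100A4, S100A6 and S100P have been studied in pancreatic cancer as genes that tumours express at raised levels. In the RefSeq gene table, which uses assembly GRCh38.p14, 9 members lie on chromosome 1 and S100P lies on chromosome 4.

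The 4 members with the largest decreases under WB436B shared a sequence feature at their starts. RefSeq promoter windows of 250 bases (assembly GRCh38.p14) were found for all 10 members, 14 windows in all, since S100A8 has 3 annotated starts and S100A2 and S100A16 have 2 each. The letters TATAAA, looked for on both strands, began 28 to 31 bases before a start in S100A9, S100P, S100A8 and S100A4 and lay 25 to 35 bases before a start in none of the other 6 members. Of all 35114 RefSeq promoters of that length, 2.64% hold TATAAA at that distance and 10.7% hold it anywhere in the window. This motif was chosen after the expression values were seen, so the coincidence is a description and was not tested. S100A8 entered the expression test only because its vehicle libraries reached 1 FPKM, so its place among the 4 decreases was nearly fixed in advance. The stretches from 40 to 11 bases before the start are shown 5′ to 3′ for these 4 genes and, for comparison, for S100A16, a member that rose under WB436B, with TATAAA in capitals. For S100A8 the start is the one with the match, and for S100A16 the one farther upstream. Annotated exons of the same gene cover all 250 bases of the S100P window, 115 of this S100A8 window and 79 of the S100A4 window.
S100A9 (GRCh38.p14 chr1:153357814-153357843, plus strand): caggagctgccTATAAAtgccgagcctgca
S100P (GRCh38.p14 chr4:6693838-6693867, plus strand): atgaggctgcctTATAAAgcaccaagaggc
S100A8 (GRCh38.p14 chr1:153391084-153391113, minus strand): agcctaaccgcTATAAAaaggagctgcctc
S100A4 (GRCh38.p14 chr1:153545817-153545846, minus strand): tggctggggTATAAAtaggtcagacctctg
S100A16 (GRCh38.p14 chr1:153613148-153613177, minus strand): gtgtatccctttaacaagggcccaacccca

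The windows were also read on both strands for 4 other motifs. TTCNNNGAA, the form to which STAT factors bind, was in none of the 14 member windows and is in 6.57% of all promoters. TGANTCA, the AP-1 form, was in 1 member window and is in 6.57% of all promoters. TTGCNNAA, the C/EBP form, was in 1 window against 9.05% of all promoters, and the NF-kB form was in 9 windows against 54.4%. For the AP-1 form, the match stands 52 bases before a start of S100A2, and that window is shown whole, with the match TGACTCA and the NF-kB form GGGTGGCCCC in capitals. The window of S100A9 is shown beside it because S100A9 had the largest change of all members and because no annotated exon reaches into it. Its capitals mark TATAAA. Only 3 of the 14 windows are free of annotated exons. The windows of S100A10, S100A6 and S100P and the other S100A2 window lie wholly within exons of the same gene. Windows of S100A8 overlap each other, so the 14 are not separate upstream stretches. A missing match says only that these letters are not in these windows.
S100A2 (GRCh38.p14 chr1:153565845-153566094, minus strand): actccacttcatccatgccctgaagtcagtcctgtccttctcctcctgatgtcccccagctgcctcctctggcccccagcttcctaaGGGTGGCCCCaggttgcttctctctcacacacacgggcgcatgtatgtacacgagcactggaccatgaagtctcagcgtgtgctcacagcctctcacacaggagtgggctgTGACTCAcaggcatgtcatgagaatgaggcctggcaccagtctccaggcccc
S100A9 (GRCh38.p14 chr1:153357604-153357853, plus strand): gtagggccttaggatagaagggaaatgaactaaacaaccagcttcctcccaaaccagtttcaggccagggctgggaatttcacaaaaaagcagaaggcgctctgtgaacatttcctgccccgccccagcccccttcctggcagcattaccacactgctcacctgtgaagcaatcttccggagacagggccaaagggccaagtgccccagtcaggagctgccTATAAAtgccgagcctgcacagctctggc

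In the libraries as a whole, depth was estimated at 14900000 to 47200000 fragments, with the deepest library in the vehicle group (replicate 1) and the WB436B and siRNA libraries between 16400000 and 20400000. STAT3, the siRNA target, averaged 10.7 ± 0.230 FPKM in WB436B libraries, 2.86 ± 0.242 FPKM in siRNA libraries and 15.8 ± 0.623 FPKM in vehicle libraries (SD, n = 3 each). The 7 ductal epithelial markers examined summed to 1100 to 1242 FPKM under WB436B, 1211 to 1290 FPKM after the siRNA and 1231 to 1267 FPKM under vehicle, with CLDN4 near 0 in some libraries. That sum hides opposite changes, among them log2 fold changes under WB436B of -1.09 for KRT19, 0.87 for KRT18 and 0.80 for KRT7. The 5 squamous or basal markers summed to 1500 to 1586 FPKM under WB436B and 1781 to 2049 FPKM after the siRNA, against 1146 to 1270 FPKM under vehicle. Opposite changes lie in this sum too. KRT17 averaged 775 FPKM under WB436B, 975 FPKM after the siRNA and 377 FPKM under vehicle. KRT5 was called lower under WB436B (-0.39) and KRT14 after the siRNA (-1.40). TP63 was called lower in both, with vehicle libraries at 37.9, 34.7 and 13.2 FPKM. Genes were tested with limma on log2(FPKM + 1) in 1 fit of all 9 libraries, with p adjusted by Benjamini-Hochberg over 12747 tested genes and 0.05 as the threshold for a call. All 10 members passed the filter of 1 FPKM in at least 3 libraries, S100A8 through its vehicle libraries only, so it could hardly enter the test without being lower in the treated groups. An exact permutation test of 3 against 3 libraries cannot give a p below 0.1.

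Together the 10 members made up 0.670% ± 0.0588 of all FPKM under WB436B, 0.578% ± 0.00867 after the siRNA and 0.725% ± 0.0397 under vehicle (SD, n = 3 each), and S100A11 was the highest of them in every library. Their FPKM summed to 1639 to 2022 in WB436B libraries, 1584 to 1661 in siRNA libraries and 1971 to 2232 in vehicle libraries. The siRNA libraries all lay below the vehicle libraries, whereas WB436B libraries overlapped with both. S100A11, which pairs with annexin A1, supplied 37.9% ± 0.392 of the sum under WB436B, 40.2% ± 0.489 after the siRNA and 39.3% ± 1.65 under vehicle (SD, n = 3 each). In vehicle libraries the order of mean levels was S100A11, S100A2, S100A14, S100P, S100A10, S100A6, S100A9, S100A16, S100A4 and S100A8. In that order S100P and S100A10 were the only neighbours whose libraries overlapped, and between the highest and the lowest the means ran from 822 FPKM for S100A11 to 2.63 FPKM for S100A8. After the siRNA S100A16 stood above S100A9. Under WB436B S100P stood below S100A10, S100A14, S100A16 and S100A6, its libraries overlapping with those of S100A6.

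**Figure D1:**
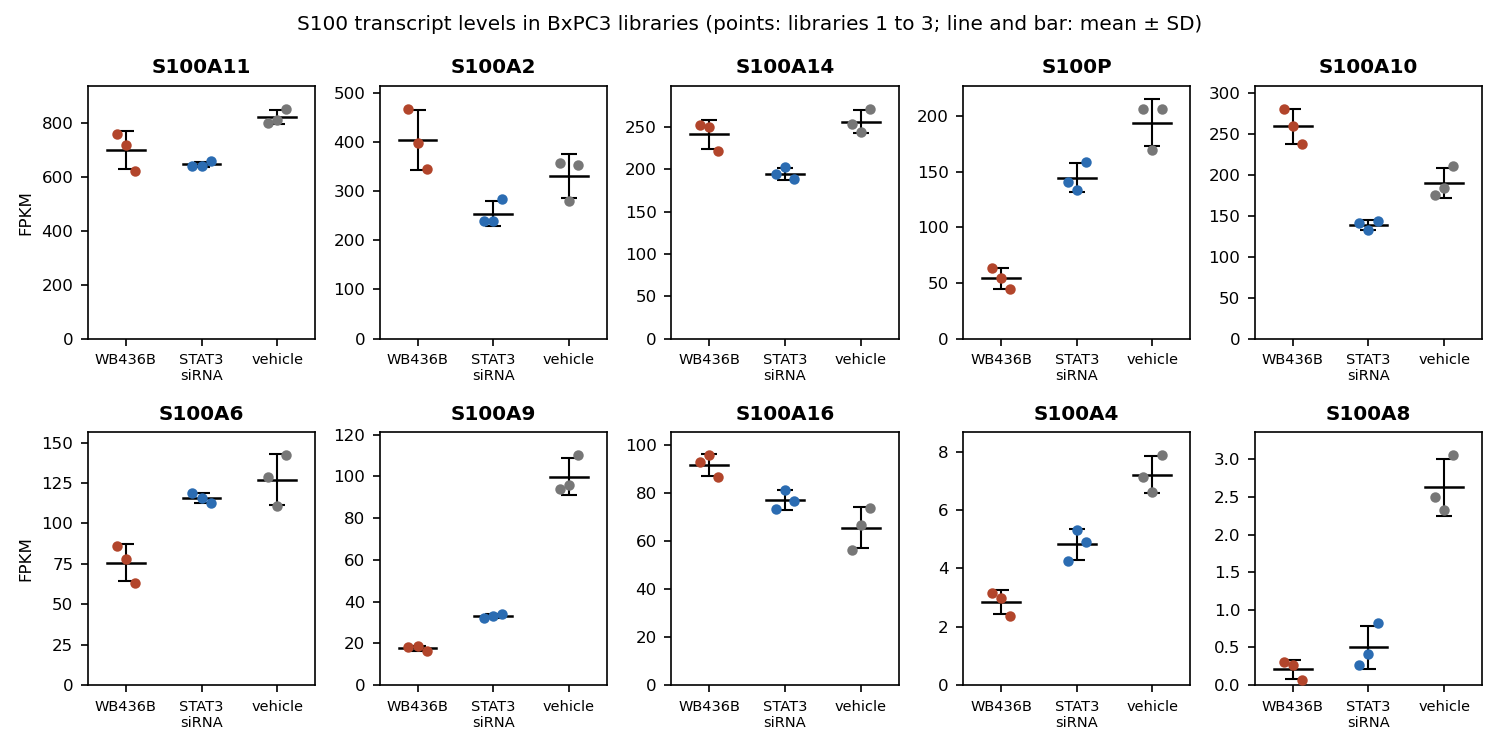
FPKM (vertical axis, linear, from 0) of each S100 member in the WB436B, STAT3 siRNA and vehicle libraries, with points for the 3 libraries of a group and a line and bar for mean ± SD. S100A9 averaged 17.6 FPKM under WB436B, 33.2 FPKM after the siRNA and 99.9 FPKM under vehicle, while S100A10 and S100A16 were highest under WB436B.

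Under WB436B members moved in both directions, as did tested genes at large. Against vehicle 6 of 10 fell, 2 rose and 2 were not called, in a comparison in which 65.9% of all tested genes were called, 41.1% lower and 24.9% higher. STAT3 siRNA lowered 8 of 10 members and raised none, while 52.1% of all tested genes were called, 22.3% lower and 29.8% higher. Without S100A8, 5 of 9 members fell and 2 rose under WB436B, and 7 of 9 fell after the siRNA. The median log2 fold change of the 10 members, S100A8 included, was -0.49 under WB436B and -0.41 after the siRNA. Medians over all tested genes were -0.13 and 0.062. A filter of 5 FPKM leaves S100A8 out. With it the medians of the 9 other members were -0.24 and -0.39, beside 0.021 and 0.071 over all genes then tested. Both comparisons use the same vehicle libraries. Set directly against the siRNA libraries, WB436B libraries were higher in 4 members and lower in 4, while 64.1% of all tested genes were called, 20% higher and 44.1% lower. The libraries of the groups did not overlap for 8 members under WB436B against vehicle (70.1% of all tested genes), for 7 after the siRNA (60.5%) and for 8 in the direct comparison (70.2%). S100A8 is among these members in both comparisons against vehicle. Several member shares thus lie near the background.

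S100A9 changed most. It codes for the larger subunit of calprotectin, a zinc- and manganese-binding antimicrobial protein that neutrophils and inflamed epithelia release. S100A9 stood at 18.0, 18.7 and 16.1 FPKM in WB436B libraries, at 32.3, 33.3 and 34.1 FPKM in siRNA libraries and at 94.1, 95.6 and 110 FPKM in vehicle libraries. The 3 groups did not overlap, and replicates within each lay close together. It fell under WB436B to 17.6% of the vehicle mean (log2 fold change -2.44, SE 0.0732, adjusted p = 7.4e-08) and after the siRNA to 33.2% (-1.56, SE 0.0732, adjusted p = 1.4e-06). The difference between the treatments was itself called (-0.88 for WB436B against siRNA, adjusted p = 1.5e-05). In these bulk libraries, fewer cells making a transcript and less transcript in each cell cannot be told apart.

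S100A8, the other subunit of calprotectin, moved the same way at a far lower level. Its libraries held 0.306, 0.261 and 0.0661 FPKM under WB436B, 0.272, 0.410 and 0.819 FPKM after the siRNA and 2.50, 2.33 and 3.05 FPKM under vehicle. Both treated groups lay below all vehicle libraries and overlapped with each other. The mean was 8.02% of the vehicle mean under WB436B and 19.0% after the siRNA. Because only vehicle carried S100A8 past the filter, its test is given from the limma fit with no filter, as a log2 fold change of -1.58 under WB436B (adjusted p = 1.3e-04) and -1.29 after the siRNA (adjusted p = 7.2e-04). The estimated support over 3 libraries was only 6.01 to 8.70 fragments under WB436B and 13.5 to 19.5 after the siRNA, against 98.8 to 143 under vehicle, the range coming from the annotated transcript lengths. The log2 values understate so weak a gene, and with a pseudocount of 0.1 the WB436B change was -3.23 in place of -1.58 and the siRNA change -2.28 in place of -1.29. WB436B and siRNA were not called different there (-0.30, adjusted p = 0.22), nor with the filter (95% interval -0.63 to 0.035, adjusted p = 0.10), except without siRNA replicate 1 (-0.41, adjusted p = 0.044).

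Because neutrophils and monocytes are rich in both calprotectin transcripts, myeloid markers were read beside them. The summed FPKM of 10 myeloid or granulocyte genes was 2.70 to 3.47 in WB436B libraries, 3.43 to 5.56 in siRNA libraries and 5.35 to 7.72 in vehicle libraries. WB436B lay below vehicle in every library, and siRNA libraries overlapped with both. Most of the sum came from CD68, at 2.55 FPKM under WB436B, 3.08 FPKM after the siRNA and 4.49 FPKM under vehicle. CD14 stood at 0.300, 0.230 and 0.498 FPKM under WB436B, at 1.01, 0.964 and 0.992 FPKM after the siRNA and at 2.16, 1.47 and 1.40 FPKM under vehicle, and 8 of the 10 genes were below 1 FPKM in every library. The granulocyte genes MPO and ELANE were at 0 in all 9 libraries, and PTPRC, which all leukocytes express, averaged 0.00455 FPKM under WB436B, 0.00208 FPKM after the siRNA and 0.00643 FPKM under vehicle.

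S100P, a ligand of AGER that also binds ezrin, was the member in which the treatments differed most. It stood at 63.5, 54.0 and 44.7 FPKM under WB436B, at 141, 133 and 159 FPKM after the siRNA and at 206, 169 and 206 FPKM under vehicle. The 3 groups did not overlap, and WB436B was far below both others. The log2 fold change was -1.83 under WB436B (SE 0.133, adjusted p = 5.1e-06) and -0.42 after the siRNA (adjusted p = 0.027), with a difference of -1.41 between the treatments (adjusted p = 3.0e-05). The siRNA call was lost without vehicle replicate 1 (-0.37, adjusted p = 0.082), vehicle replicate 3 (-0.37, 0.081), siRNA replicate 1 (-0.40, 0.072) or siRNA replicate 2 (-0.36, 0.086), and with no filter on low genes (adjusted p = 0.073).

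S100A4, also called metastasin, binds the heavy chain of non-muscle myosin. It was weakly expressed here, at 3.16, 2.98 and 2.37 FPKM under WB436B, 4.26, 5.33 and 4.89 FPKM after the siRNA and 7.14, 6.63 and 7.87 FPKM under vehicle. The groups were separate and in the same order as for S100A9. S100A4 fell by 1.10 on the log2 scale under WB436B (SE 0.102, adjusted p = 2.2e-05) and by 0.50 after the siRNA (adjusted p = 0.0037).

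S100A6, calcyclin, fell under WB436B and was not called after the siRNA. It stood at 85.9, 78.2 and 63.3 FPKM under WB436B, at 119, 116 and 113 FPKM after the siRNA and at 128, 111 and 142 FPKM under vehicle. WB436B libraries lay below all others, while siRNA and vehicle overlapped. Its log2 fold change was -0.74 under WB436B (SE 0.119, adjusted p = 6.1e-04) and -0.13 after the siRNA (95% interval -0.40 to 0.15, adjusted p = 0.41). The treatments differed by -0.62 (adjusted p = 0.0019).

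S100A10 was the only member called in opposite directions. This protein, also named p11, does not need calcium and forms a complex with annexin A2 that holds plasminogen at the cell surface. It stood at 281, 260 and 237 FPKM under WB436B, at 141, 133 and 144 FPKM after the siRNA and at 176, 184 and 211 FPKM under vehicle. Every WB436B library lay above every vehicle library and every siRNA library below. The log2 fold change was 0.45 under WB436B (SE 0.0826, adjusted p = 0.0014) and -0.45 after the siRNA (SE 0.0826, adjusted p = 0.0022), and the direct difference of 0.89 was called (adjusted p = 2.8e-05). Over the 19 alternative settings both directions and all 3 calls held, although several of these settings cannot move a fold change.

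S100A16 rose under WB436B. It is a widely expressed member that can pair with S100A14. Its libraries held 92.6, 95.6 and 86.7 FPKM under WB436B, 73.4, 81.3 and 76.5 FPKM after the siRNA and 56.3, 66.7 and 73.5 FPKM under vehicle. WB436B was above all other libraries, and the siRNA libraries overlapped with vehicle at 73.4 and 73.5 FPKM. The change was 0.48 under WB436B (SE 0.0919, adjusted p = 0.0016) and 0.24 after the siRNA (95% interval 0.027 to 0.45, adjusted p = 0.058). The siRNA change passed when libraries were scaled to equal totals (0.29, adjusted p = 0.0076), after quantile normalization (0.24, 0.028) and without vehicle replicate 3 (0.32, 0.014). WB436B exceeded siRNA by 0.25 (adjusted p = 0.042), a call that 7 of 19 alternatives ended. These were quantile normalization (0.11, adjusted p = 0.27), no filter (0.097), and the fits without vehicle replicate 2 (0.057), siRNA replicate 1 (0.12) or 3 (0.093), or WB436B replicate 1 (0.096) or 2 (0.12).

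S100A2, S100A14 and S100A11, abundant in stratified and glandular epithelia, fell after the siRNA. S100A2 held 467, 399 and 346 FPKM under WB436B, 240, 239 and 283 FPKM after the siRNA and 358, 279 and 354 FPKM under vehicle. Its libraries spread widely and vehicle overlapped with both treatments. The siRNA change of -0.37 was just called (adjusted p = 0.046) and was lost in 8 of 19 alternatives, among them each fit without vehicle replicate 1 or 3, siRNA replicate 1 or 2, or WB436B replicate 2 (adjusted p 0.064 to 0.13). WB436B against vehicle was not called (0.29, 95% interval -0.023 to 0.60, adjusted p = 0.092) but passed with equal totals (0.36, 0.037), median-of-ratios scaling (0.45, 0.020) and without WB436B replicate 3 (0.39, 0.036). WB436B exceeded siRNA by 0.66 (adjusted p = 0.0026), and these libraries did not overlap.

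S100A14 held 252, 250 and 221 FPKM under WB436B, 194, 202 and 188 FPKM after the siRNA and 253, 244 and 271 FPKM under vehicle. The siRNA libraries lay below all others. The change was -0.39 after the siRNA (SE 0.0639, adjusted p = 0.0010) and -0.088 under WB436B (95% interval -0.23 to 0.058, adjusted p = 0.25), although quantile normalization gave a called -0.22 (adjusted p = 0.014). WB436B exceeded siRNA by 0.31 (adjusted p = 0.0029). S100A11 held 758, 718 and 621 FPKM under WB436B, 641, 641 and 658 FPKM after the siRNA and 802, 812 and 853 FPKM under vehicle. Both treatments lay below vehicle, at -0.24 under WB436B (adjusted p = 0.017) and -0.35 after the siRNA (SE 0.0713, adjusted p = 0.0037), and their difference was not called (0.11, 95% interval -0.055 to 0.27, adjusted p = 0.21) except without WB436B replicate 3 (0.19, 0.010) and with median-of-ratios scaling (0.34, 0.0035). The WB436B call of S100A11 was lost with median-of-ratios scaling (-0.076, adjusted p = 0.39), with no filter (adjusted p = 0.058) and without vehicle replicate 3 (-0.21, adjusted p = 0.050). S100A11 has pseudogenes of near-identical sequence, so its level is uncertain to the extent that fragments were shared with them.

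**Figure D2:**
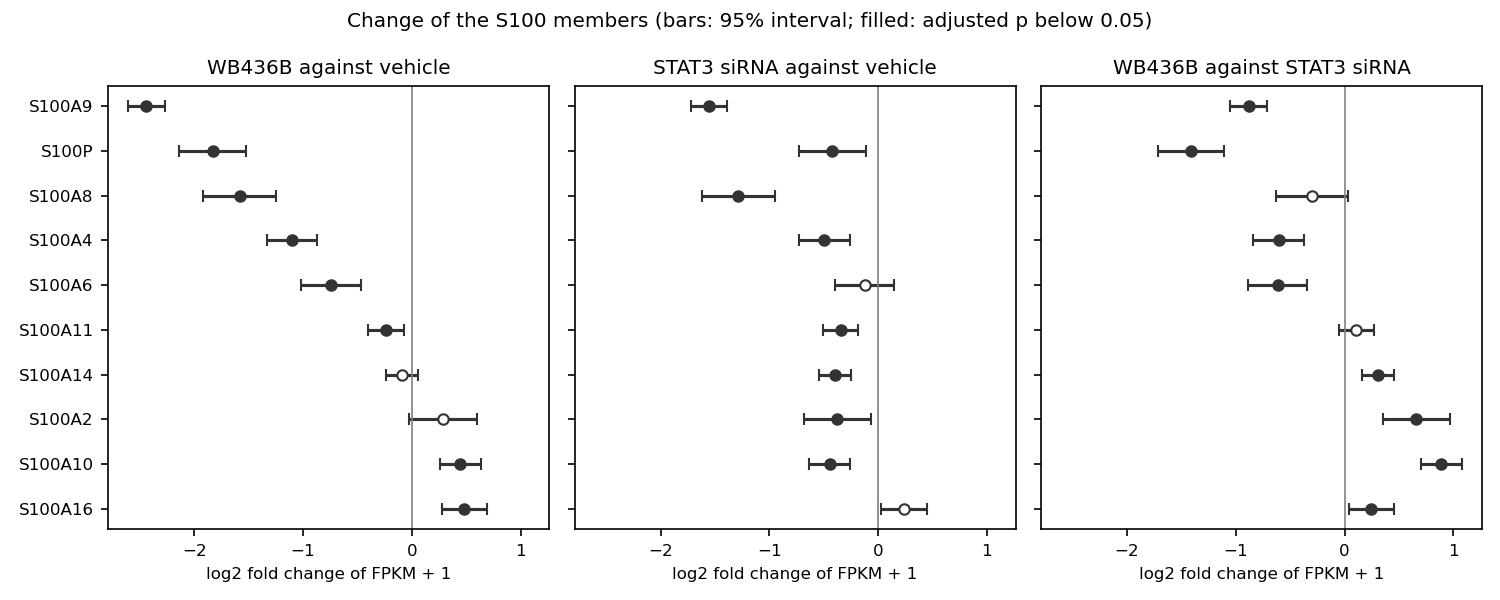
Log2 fold change of FPKM + 1 (horizontal axis) of each member in 3 comparisons, WB436B against vehicle, STAT3 siRNA against vehicle and WB436B against STAT3 siRNA, with 95% intervals and filled points for adjusted p below 0.05. Under WB436B the members span -2.44 (S100A9) to 0.48 (S100A16), while after the siRNA 8 of 10 are called lower. S100A8, counted among these, passed the filter through its vehicle libraries only.

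Along chromosome 1 most S100 genes lie in a row. In gene order it begins with S100A10 and S100A11, goes on with S100A9, S100A12, S100A8, S100A7A, S100A7L2, S100A7, S100A6, S100A5, S100A4 and S100A3, and ends with S100A2, S100A16, S100A14, S100A13 and S100A1. Members called lower and members called higher under WB436B both occur in it, as S100A10 (higher) and S100A11 (lower) stand side by side, and S100P, with the second largest decrease, lies on chromosome 4. Of the other 11 S100 genes in the table only S100A3, S100A7 and S100A13 could be tested, and 3 were at 0 in all libraries. S100A3 averaged 11.7 ± 1.13 FPKM under WB436B, 7.94 ± 1.23 FPKM after the siRNA and 20.5 ± 2.74 FPKM under vehicle (SD, n = 3 each). It fell by 0.76 under WB436B (adjusted p = 6.6e-04) and by 1.27 after the siRNA (adjusted p = 6.1e-05), and WB436B exceeded siRNA by 0.51 (adjusted p = 0.0062). S100A7, psoriasin, an antimicrobial protein of inflamed skin, averaged 0.0700 FPKM under WB436B and 0.230 FPKM after the siRNA, against 2.27 FPKM under vehicle. It too passed the filter through vehicle only, and the fit with no filter gave log2 fold changes of -1.61 (adjusted p = 2.2e-05) and -1.41 (adjusted p = 9.6e-05). S100A13 was called higher in both comparisons (0.23, adjusted p = 0.040, and 0.29, adjusted p = 0.019), calls that 10 and 5 of 19 alternatives ended, with adjusted p up to 0.12 and 0.062 when vehicle replicate 3 was left out.

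**Figure D3:**
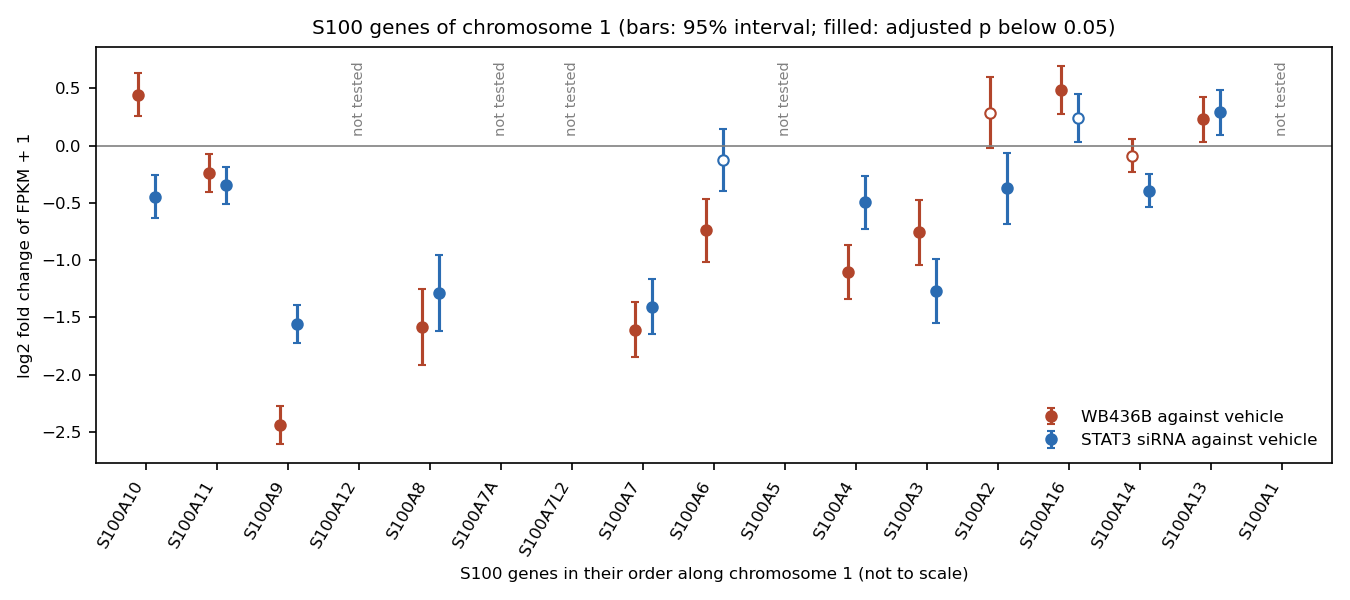
Log2 fold change of FPKM + 1 (vertical axis) under WB436B and after STAT3 siRNA, each against vehicle, for the S100 genes in their order along chromosome 1 (horizontal axis, not to scale), with 95% intervals and filled points for adjusted p below 0.05. S100A9, S100A8 and S100A7 lie lowest, at -2.44, -1.58 and -1.61 under WB436B, and genes marked as not tested did not pass the filter. S100A8 and S100A7 passed it through their vehicle libraries only, so they could hardly be drawn without lying below 0.

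Of 9 tested genes of S100 partner proteins inside the cell, 6 rose and 2 fell under WB436B (median log2 fold change 0.51), beside 24.9% and 41.1% of all tested genes. After the siRNA 3 rose and 3 fell (median -0.019), beside 29.8% and 22.3% of all tested genes. ANXA2, the partner of S100A10, averaged 214 ± 2.69 FPKM under WB436B, 101 ± 5.09 FPKM after the siRNA and 147 ± 10.4 FPKM under vehicle (SD, n = 3 each). It rose by 0.54 under WB436B (adjusted p = 5.5e-05) and fell by 0.53 after the siRNA (adjusted p = 1.2e-04), beside 0.45 and -0.45 for S100A10. ANXA1, the partner of S100A11, rose by 0.51 under WB436B (adjusted p = 2.1e-05) and fell by 0.27 after the siRNA (adjusted p = 0.0015). MYH9, the myosin heavy chain that S100A4 binds, rose by 1.00 under WB436B (adjusted p = 3.4e-06) and by 0.50 after the siRNA (adjusted p = 3.8e-04), while S100A4 fell in both. CACYBP, a binder of S100A6, rose by 0.92 (adjusted p = 7.9e-06) and 0.54 (adjusted p = 3.4e-04). EZR, the ezrin gene, rose by 0.45 under WB436B (adjusted p = 2.5e-05) and was not called after the siRNA (-0.082, adjusted p = 0.14). The 2 that fell under WB436B were ANXA11 (-0.38, adjusted p = 3.5e-05) and IQGAP1 (-0.17, adjusted p = 0.013). ANXA11 also fell after the siRNA (-0.20, adjusted p = 0.0023). AHNAK, singled out after its values were seen, counts among the risers, but vehicle replicates 1 to 3 held 7.67, 7.21 and 138 FPKM, and without vehicle replicate 2 the calls were lost (adjusted p = 0.16 under WB436B and 0.14 after the siRNA), as they were in 8 of the 9 fits that left out a library.

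Among 6 tested genes of surface receptors for secreted S100 proteins, 2 rose and 2 fell under WB436B (median -0.041), and 3 fell after the siRNA (median -0.37). Of all tested genes 65.9% were called under WB436B, 41.1% lower and 24.9% higher, and 52.1% after the siRNA, 22.3% lower and 29.8% higher. With directions pooled, the receptors' shares lie near the background, although no receptor was called higher after the siRNA. TLR4, a receptor for S100A8 and S100A9, averaged 1.97 ± 0.234 FPKM under WB436B, 0.179 ± 0.103 FPKM after the siRNA and 0.796 ± 0.144 FPKM under vehicle (SD, n = 3 each). Only the WB436B libraries reached 1 FPKM and carried TLR4 past the filter, so it could hardly enter the test without being higher there. TLR4 is nevertheless counted above, among the risers under WB436B, among the genes that fell after the siRNA and in both medians. In the fit with no filter its log2 fold change was 0.73 under WB436B (adjusted p = 9.7e-04) and -0.61 after the siRNA (adjusted p = 0.0039), with a direct difference of 1.33 (adjusted p = 4.6e-05). AGER fell by 0.52 in both comparisons (adjusted p = 0.0049 under WB436B and 0.0069 after the siRNA), and quantile normalization ended the WB436B call (-0.23, adjusted p = 0.13). ALCAM, an adhesion molecule, rose by 0.23 under WB436B (adjusted p = 0.0020), a call that quantile normalization ended (0.085, adjusted p = 0.13), and fell by 0.28 after the siRNA (adjusted p = 0.0011). BSG, a receptor of S100A9, was the most abundant of the list at means of 123 FPKM under WB436B, 140 FPKM after the siRNA and 132 FPKM under vehicle, and was called in neither.

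The S100 row of chromosome 1 lies in the epidermal differentiation complex, whose SPRR genes code for precursors of the cornified envelope. Of 7 tested genes of that region outside the S100 family, 5 fell and none rose under WB436B (median -0.60), beside 41.1% called lower and 24.9% higher among all tested genes. After the siRNA 4 fell and 1 rose (median -0.33), beside 22.3% and 29.8%. SPRR1A averaged 38.1 ± 5.92 FPKM under WB436B, 32.3 ± 0.878 FPKM after the siRNA and 115 ± 5.10 FPKM under vehicle (SD, n = 3 each). Its log2 fold changes were -1.57 (adjusted p = 2.5e-06) under WB436B and -1.80 (adjusted p = 3.2e-06) after the siRNA. SPRR2F fell by 1.06 under WB436B (adjusted p = 5.9e-06) and by 0.33 after the siRNA (adjusted p = 0.0083), and SPRR2D rose by 0.52 after the siRNA (adjusted p = 7.2e-04). SPRR genes resemble each other closely, so fragments may have been exchanged between them.

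**Figure D4:**
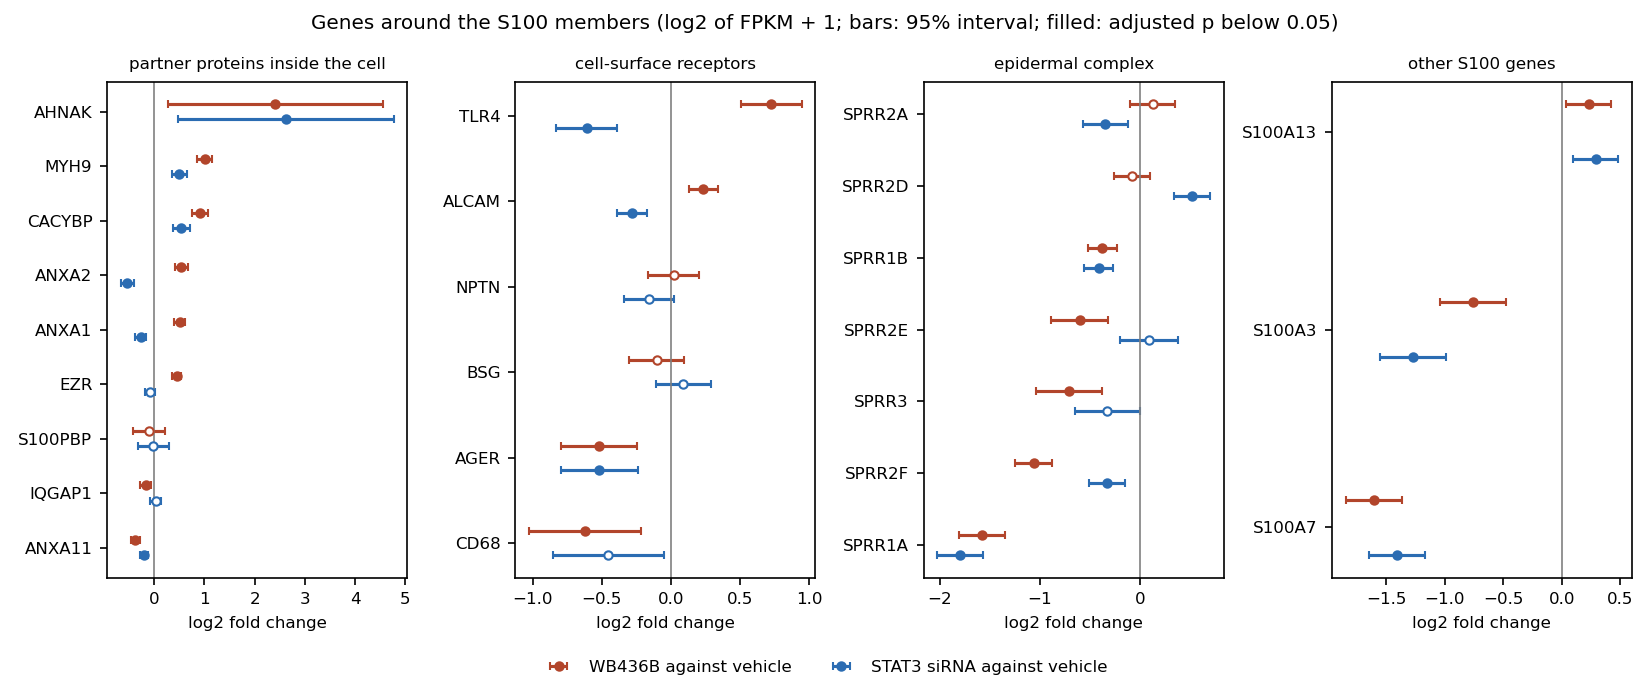
Log2 fold change of FPKM + 1 (horizontal axes, separate scales) under WB436B and after STAT3 siRNA, each against vehicle, for tested genes of partner proteins, surface receptors, the epidermal differentiation complex and other S100 genes, with 95% intervals and filled points for adjusted p below 0.05. ANXA2, ANXA1, TLR4 and ALCAM lie on opposite sides of 0 in the 2 comparisons, and the wide intervals of AHNAK come with 1 vehicle library at 138 FPKM. TLR4 passed the filter through WB436B only and S100A7 through vehicle only.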

How the data were processed

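RNA-seq values of 9 BxPC3 libraries (3 each for WB436B, STAT3 siRNA and vehicle, grouped by their titles) were used as FPKM, deposited by the authors in 1 table of 60564 Ensembl identifiers. Bowtie 0.12.2 and the mouse build mm8 are named in the submitters' processing notes, although the identifiers are human, so the build is uncertain. Which program, annotation, strand setting and filters lie behind the FPKM is not given in the sources used here. Depth was estimated by taking the commonest value of FPKM times length, among genes with a single GENCODE transcript, as 1 fragment. Of low values, 38.4% to 43.2% lay within 0.1 of a whole number of fragments, so depths and fragment counts are rough.

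Genes reaching 1 FPKM in 3 or more libraries (12747, 21% of identifiers) were fitted as log2(FPKM + 1) with limma 3.58.1 in R 4.3.3 (variance trend, 6 residual degrees of freedom, no block), after a check on simulated data. Fold changes are on that scale, and ± values are standard deviations. Tests were two-sided and adjusted by Benjamini-Hochberg over all tested genes.

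The members, gene lists and motifs were chosen with earlier results of these data known. Up to 4 called genes per list and comparison were named, by smallest adjusted p. AHNAK, ANXA11 and IQGAP1 were named beyond this rule. The alternatives were pseudocounts of 0.1 and 0.5, no filter or 5 FPKM, equal totals, median-of-ratios and quantile scaling, a replicate block, no variance trend, fits restricted to the compared pair, and each library left out.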

Additional observations from a re-analysis of the deposited data

How the results depend on the processing

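Over all alternatives, values of member changes kept direction and call in 532 cases, lost the call in 23 and gained it in 10. Changing the filter, the block, the variance trend or libraries outside the compared pair leaves the fold change itself unmoved. Direction was fixed in those settings and only the call could change, so the 532 cases overstate how firmly directions were tried. Direction reversed in 2, both not called: S100A14 under WB436B against vehicle with median-of-ratios scaling (0.074, adjusted p = 0.35), and S100A8 under WB436B against siRNA with quantile normalization (0.047, adjusted p = 0.81). The count of called members was 8 in each comparison and ranged from 6 to 9 across alternatives. Leaving out 1 library gave 6 to 8 called members after the siRNA, 7 to 9 under WB436B and 7 to 9 in the direct comparison. S100A8 could not be tested with the filter of 5 FPKM, which tests fewer genes and called 4138 genes after the siRNA, 4860 under WB436B and 4629 in the direct comparison, against 6638, 8402 and 8175.

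The median over tested genes under WB436B, -0.13 against vehicle as deposited, moved by 0.13 with median-of-ratios scaling and by 0.16 with quantile normalization. The members' median, S100A8 included, was -0.49 as deposited, -0.33 and -0.63 with these, so quantile normalization moved it the other way. Upward calls made up 37.7% as deposited, 49.9% and 53.0% with these scalings, 50.4% with the filter of 5 FPKM. In the direct comparison they made up 31.2%, 50.6%, 50.0% and 44.2%. The rises of S100A10 (0.36 to 0.61) and S100A16 (0.35 to 0.65) under WB436B held throughout the scalings. Same-numbered libraries of different groups had deviations correlated at -0.085 to 0.16. Between vehicle and siRNA these were 0.042, 0.12 and 0.16, against -0.12 to 0.014 for unlike numbers, so replicate numbers may pair those libraries weakly. Same-numbered libraries were not more alike in the comparisons with WB436B. The replicate block gave 7, 8 and 8 called members (siRNA, WB436B, direct), with S100A2 lost after the siRNA (adjusted p = 0.056). S100A8 rests on the fewest estimated fragments of the 10 members.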

Other observations

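Other calcium sensors with EF-hands did not share a direction. Of 14 tested genes of this kind 4 rose and 4 fell under WB436B (median log2 fold change 0.031), beside 24.9% and 41.1% of all tested genes. After the siRNA 2 rose and 3 fell (median -0.036), beside 29.8% and 22.3%. CAPN2, a calpain subunit gene, stood at 80.8, 82.0 and 87.3 FPKM under WB436B, 38.4, 37.7 and 36.5 FPKM after the siRNA and 54.3, 55.1 and 55.2 FPKM under vehicle, a rise of 0.59 (adjusted p = 3.9e-06) and a log2 fold change of -0.53 (adjusted p = 1.7e-05). CHP1, like AHNAK, jumped between replicates, at 3.79, 4.99 and 20.8 FPKM under WB436B, 35.9, 37.4 and 40.3 FPKM after the siRNA and 32.1, 7.40 and 30.6 FPKM under vehicle. Of the genes whose proteins fuse an S100 domain to long repeats, only filaggrin, FLG, could be tested, at 0.803 ± 0.172 FPKM under WB436B, 2.55 ± 0.176 FPKM after the siRNA and 2.86 ± 0.389 FPKM under vehicle (log2 fold change -1.10, adjusted p = 1.7e-05, and -0.12, adjusted p = 0.35).

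For the 3 members with the widest range of group means, the genes most alike over the 9 libraries were read from Pearson's r of log2(FPKM + 1) against 12737 other tested genes, as a description over libraries that share 3 groups. JUNB (0.997), AC011374.1 (0.997) and KYNU (0.997) were closest to S100A9, ADIRF (0.992), BEX3 (0.991) and MMP24-AS1 (0.990) to S100P, and PEX13 (0.994), SRSF5 (0.993) and CCNDBP1 (0.992) to S100A8. JUNB, an AP-1 subunit, averaged 28.2 ± 2.14 FPKM under WB436B, 43.1 ± 1.50 FPKM after the siRNA and 90.1 ± 0.951 FPKM under vehicle. An r above 0.95 was reached by 579 genes for S100A9, 572 for S100P and 229 for S100A8.

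The ratio of S100A10 to S100P, whose libraries overlapped under vehicle, was 4.85 ± 0.447 under WB436B, 0.968 ± 0.0535 after the siRNA and 0.989 ± 0.121 under vehicle (SD, n = 3 each). The ratio of S100A9 to S100A8 was 58.9, 71.6 and 244 in WB436B libraries, 119, 81.2 and 41.6 in siRNA libraries and 37.6, 41.0 and 36.0 in vehicle libraries, with the widest spread where S100A8 was lowest.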
